A study of Mus musculus with 3 samples.

Results

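The small RNA data of mouse embryonic stem (ES) cells were examined for the miRNAs whose hairpins are reported to be made without cleavage by Drosha. Every listed arm of miR-320, miR-484, miR-877, miR-702 and miR-1224 was taken by name, which gave 7 of the 693 listed miRNAs: miR-320-3p, miR-320-5p, miR-484, miR-877-5p, miR-877-3p, miR-702 and miR-1224-5p. The question put to them was whether they followed the miRNAs made by the canonical route when Nodal/Activin signalling was blocked and then restored. All libraries came from TAG1 ES cells, a line that carries a Dox-inducible, constitutively active Alk4 receptor (Alk4*), whose kinase activates Smad2/3. Control cells were untreated, in medium with FBS. SB cells were kept for 16 hrs in 30 µM of the receptor inhibitor SB, named SB-431541 in the sample labels and SB-431542 in the methods. Dox cells had the same 16 hrs of SB and then 12 hrs of 1 µg/µl Dox. Both treated cultures were in KSR medium, so treatment and medium cannot be told apart in a comparison with Control. In Dox over SB, the induction of Alk4*, the 12 hrs of further culture and Dox itself cannot be told apart from these libraries. There was 1 library per condition, so no difference here has a replicate check and no p-value for a condition is given.

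Most miRNA hairpins are cut out of a long primary transcript in the nucleus by the Microprocessor, the complex of Drosha and Dgcr8, and are then cut by Dicer into a duplex whose arms are named 5p and 3p. In mirtrons the hairpin is a short intron: splicing and lariat debranching make its ends, and Dicer makes the duplex. The miR-320 hairpin is known as a short capped transcript whose 5′ end is its transcription start, and its 3p arm is the one loaded into Argonaute. miR-484 is another hairpin described as made without Drosha. These miRNAs therefore share Dicer with the canonical miRNAs but not the first nuclear cut.

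Sequences are shown for miR-484 and for the mirtrons miR-877 and miR-1224, because the mirtron hairpins can be read directly as introns, and the rare miR-877-3p is given as the other end of its intron. They are from RefSeq (GRCm38.p6), where 4 of the 7 names were matched. In the mature sequences, written 5′ to 3′, the capitals mark the seed, bases 2 to 8, which leads target pairing.
miR-484: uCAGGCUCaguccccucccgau
miR-877-5p: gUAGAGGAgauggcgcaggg
miR-877-3p: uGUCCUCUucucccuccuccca
miR-1224-5p: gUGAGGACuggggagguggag
No other listed miRNA with a sequence in the table (516 of 693) shared a seed with these 4. Both mirtron 5p arms were rich in G, with 11 of 20 bases in miR-877-5p and 13 of 21 in miR-1224-5p. With 20 bases, miR-877-5p lay at the lower end of the 20 to 30 nucleotide gel fraction from which the libraries were made.

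In the hairpins, the capitals mark the arms that the data list.
Mir877: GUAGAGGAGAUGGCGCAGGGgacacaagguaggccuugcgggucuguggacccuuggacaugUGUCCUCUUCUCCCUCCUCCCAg
Mir1224: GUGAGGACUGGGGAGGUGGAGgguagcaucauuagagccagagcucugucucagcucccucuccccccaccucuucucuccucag
Mir484: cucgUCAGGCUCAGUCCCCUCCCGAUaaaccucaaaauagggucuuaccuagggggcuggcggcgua
The Mir877 and Mir1224 hairpins begin with gu and end with ag, the bases at the ends of most introns. Mir877 (chr17:35960730-35960814, minus strand, GRCm38) coincided base for base with an 85-base intron of Abcf1, a gene of the ABC family with a role in translation initiation. Mir1224 (chr16:20604452-20604536, plus strand) coincided in the same way with an 85-base intron of Vwa5b2. Both 5p arms start at the first base of their intron. The annotated Mir702 hairpin (chr5:136991433-136991541, plus strand) starts 9 bases before a 102-base intron of Plod3, a collagen-modifying enzyme, and ends 2 bases before the intron does. The data list miR-702 without an arm, so it could not be matched to an arm of this hairpin.

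**Figure D1:**
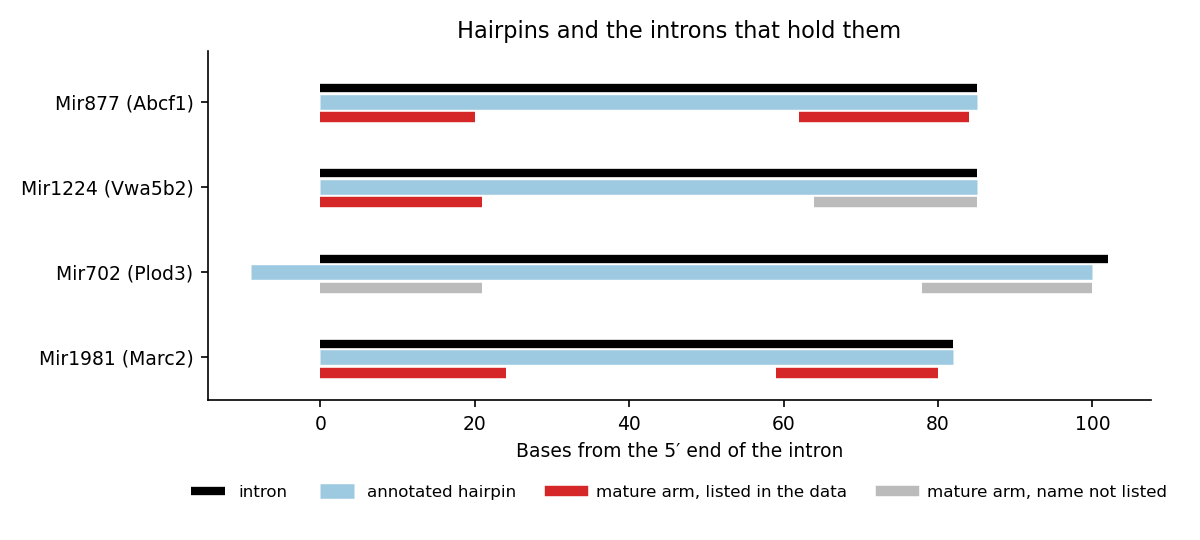
Each row shows an intron (black), the annotated hairpin (blue) and the mature arms (red where the data list that name, grey where they do not) in bases from the 5′ end of the intron. The Mir877, Mir1224 and Mir1981 hairpins have the ends of their introns, while Mir702 starts 9 bases upstream of its intron.

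The other hairpins of the group were not inside an intron of their own strand. Mir320 (chr14:70443510-70443591, plus strand) lies 63 bases upstream of the start of Polr3d, a subunit gene of RNA polymerase III, which is read from the opposite strand. Mir484 (chr16:14159626-14159692, plus strand) lies 3649 bases upstream of the nearest annotated start of Nde1 on the same strand, and overlaps an exon of 1 of the 3 annotated Marf1 transcripts on the opposite strand. Of the 693 listed miRNAs, 623 (89.9%) could be placed in the annotation. With a tolerance of 10 bases at each end, 13 listed miRNAs from 7 hairpins filled an intron, and 4 of them belong to miR-877, miR-702 and miR-1224.

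The 3 libraries gave 2739358 to 3302828 reads on listed miRNAs, out of totals of 9895513 to 11354692 reads implied by the values, so that 1 read was worth 0.0881 to 0.101 rpm (reads scaled by the authors to 1000000). The ES cell miRNAs of the miR-290 and miR-302 clusters (23 listed) held 28.9% of the miRNA reads in Control, 27.0% in SB and 28.1% in Dox. The 12 listed fibroblast miRNAs, such as miR-199a, miR-214 and miR-143, held 0.836%, 2.74% and 0.849%. Their summed levels were 2367, 6604 and 2834 rpm, and none of them was at 0. Of these sums, miR-21-5p made up 1159, 2486 and 2041 rpm. Identical values of 547, 1943 and 337 rpm were listed for miR-199a-3p and miR-199b-3p, and both were counted. The SB library was thus the one with the most fibroblast miRNA, and the part of this in the ratios below was not tested. In bulk RNA, fewer cells of a type and less RNA per cell cannot be told apart.

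miR-320-3p was the most abundant of the 7 by far, and it fell with SB and rose above Control with Dox. Its level was 8299.6 rpm in Control (90928 reads), 4644 rpm in SB (52727 reads) and 17683 rpm in Dox (174984 reads). It took 2.93% of all miRNA reads in Control, 1.92% in SB and 5.30% in Dox, and ranked 8th, 12th and 4th among the listed miRNAs. The Dox library was the highest and SB the lowest, and the counting intervals of the 3 levels were far apart. The level in SB was 1.79-fold below Control, a log2 ratio of -0.84 (95% interval -0.85 to -0.82). The level in Dox was 3.81-fold above SB, a log2 ratio of 1.93 (1.91 to 1.94), and 2.13-fold above Control. miR-320-3p is among the miRNAs that the study picked on these samples, so its direction here is not independent evidence. The folds given for it are those of sequencing alone, and the separate qPCR measurements of the study, which the folds here do not stand in for, were not analysed here. Intervals cover counting error only, since reads of a PCR library are not independent molecules.

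miR-320-5p, the other arm of this hairpin, stood at a few rpm and was lowest in Dox. It had 4.11 rpm in Control (45 reads), 2.11 rpm in SB (24 reads) and 1.21 rpm in Dox (12 reads). Its log2 ratio was -0.96 (-1.74 to -0.21) in SB over Control and -1.76 (-2.81 to -0.82) in Dox over Control. For Dox over SB the ratio was -0.80 (-1.94 to 0.25), and these 36 reads could not set it apart from an equal level. Where the 3p arm was highest, in Dox, the 5p arm was lowest.

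miR-484 had a middle level and moved less. It stood at 62.8 rpm in Control (688 reads), 50.9 rpm in SB (578 reads) and 85.8 rpm in Dox (849 reads). The order of the libraries was that of miR-320-3p, with Dox highest and SB lowest, and the 3 counting intervals did not overlap. In SB over Control the log2 ratio was -0.30 (-0.46 to -0.14), a 1.23-fold lower level that missed the threshold of a level 20% below. From SB to Dox it rose by a log2 ratio of 0.75 (0.60 to 0.91), or 1.69-fold, and in Dox over Control by 0.45 (0.30 to 0.60).

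The mirtron miR-877-5p had the largest ratios of the 7 in SB over Control and in Dox over SB, while in Dox over Control that of miR-320-5p was larger in size. It had 114 rpm in Control (1254 reads), 53.4 rpm in SB (606 reads) and 305 rpm in Dox (3023 reads). The level in SB was 2.14-fold below Control, a log2 ratio of -1.10 (-1.24 to -0.96). The level in Dox was 5.72-fold above SB, a log2 ratio of 2.52 (2.39 to 2.65), and 2.67-fold above Control. Of all 693 listed miRNAs, 15 had a higher ratio of Dox over SB.

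The mirtron miR-1224-5p, whose hairpin has the same intron geometry, had the reverse order in its first step. It stood at 17.8 rpm in Control (195 reads), 26.9 rpm in SB (306 reads) and 24.1 rpm in Dox (238 reads). SB was its highest library and Control its lowest, and the intervals of SB and Dox overlapped. Its log2 ratio was 0.60 (0.33 to 0.87) in SB over Control, -0.16 (-0.41 to 0.08) in Dox over SB and 0.43 (0.16 to 0.71) in Dox over Control.

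The remaining arms were too rare to place. miR-877-3p had 0.821 rpm in Control (9 reads), 0.528 rpm in SB (6 reads) and 0.808 rpm in Dox (8 reads). miR-702 had 5 reads in every library, or 0.456, 0.440 and 0.505 rpm. Their log2 ratios of Dox over SB, 0.61 (-1.10 to 2.42) for miR-877-3p and 0.20 (-1.92 to 2.32) for miR-702, had intervals that spanned large changes in both directions, so a change in either was not detectable at this depth.

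**Figure D2:**
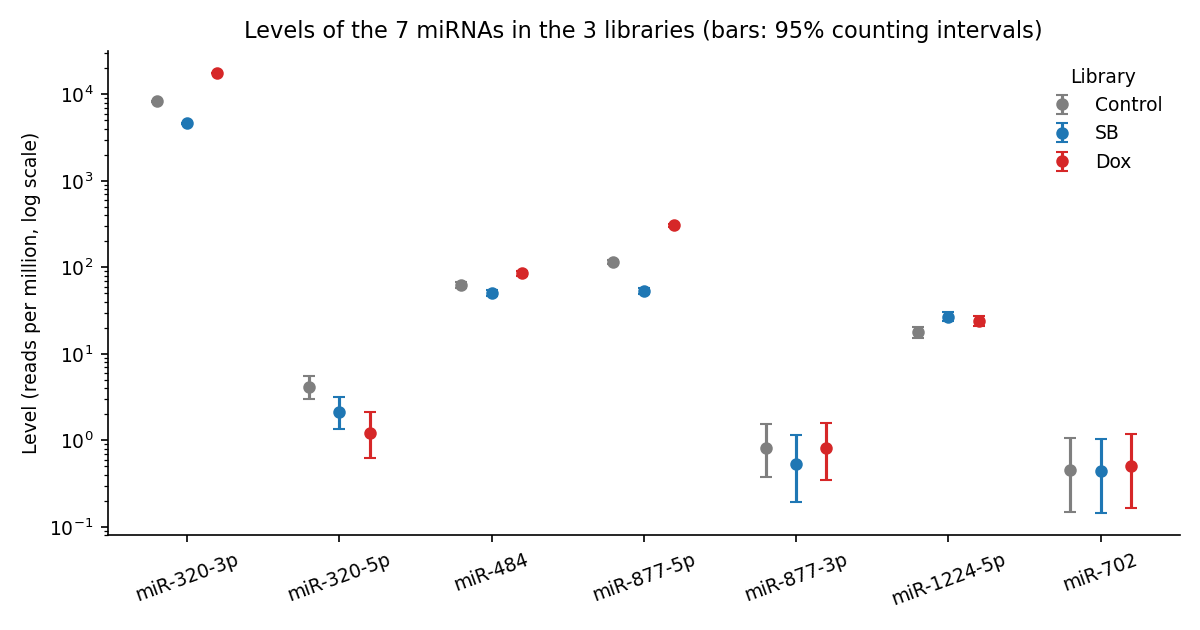
Level of each of the 7 miRNAs in rpm (log scale) in the Control, SB and Dox libraries, with 95% Poisson counting intervals as bars and 1 library per condition. miR-320-3p and miR-877-5p are lowest in SB and highest in Dox, miR-320-5p is lowest in Dox, and the intervals of miR-877-3p and miR-702 overlap across libraries.

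A miRNA was called higher where its level was at least 25% above that of the other library, or lower where it was at least 20% below, and where a Z-score on the reads also passed its two-sided 5% point. The Z-score compares 2 libraries, not the conditions. In SB over Control, 3 of the 7 were lower (miR-320-3p, miR-320-5p and miR-877-5p), where 30.2% of all listed miRNAs were, and 1 was higher (miR-1224-5p), against 15.3%. Between Dox and SB, 3 were higher in Dox (miR-320-3p, miR-484 and miR-877-5p), where 41.7% of all listed miRNAs were, and 0 were lower, against 17.9%. In Dox over Control, 4 were higher, against 30.6%, and 1 was lower (miR-320-5p), against 19.8%. The p-Smad2/3 activation profile, lower in SB over Control and higher in Dox over SB, was met by miR-320-3p and miR-877-5p, 2 of the 7, and by 145 of the 693 listed miRNAs (20.9%). With so few members, the counts in SB over Control and in Dox over SB and the count of the profile were close to the shares of the whole list. The 4 called higher in Dox over Control became 2 under 4 of the 5 other scalings and with folds of 1.5 and 2, so nothing is read from this count.

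Read depth bears on these counts, since miRNAs with few reads are seldom called. Among the 291 listed miRNAs with at least 100 reads in every library, 42.6% were lower and 17.5% higher in SB over Control, 22.0% lower and 57.4% higher in Dox over SB, 23.7% lower and 40.9% higher in Dox over Control, and 33.3% met the activation profile. Of the 7, the 4 that passed this depth were miR-320-3p, miR-484, miR-877-5p and miR-1224-5p. The 3 comparisons share libraries, so a low value in SB lowers the first ratio and raises the second for the same miRNA.

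The median log2 ratio of the 7 was -0.64 in SB over Control, 0.61 in Dox over SB and 0.43 in Dox over Control, beside medians of -0.19, 0.38 and 0.19 over all 693. The first 2 medians are the values of miR-877-3p, with 6 to 9 reads, and moved with the processing: in Dox over SB to 1.34 when 100 summed reads were required and to 0.15 on the scale of listed reads, and in SB over Control to -0.30 with a pseudocount of 1 rpm. Nothing is read from their distance to the medians of all listed miRNAs. The range within the group was wide. For Dox over SB it ran from -0.80 for miR-320-5p to 2.52 for miR-877-5p, and the latter lay above 97.7% of all listed miRNAs, miR-320-3p above 94.1%, miR-484 above 66.8% and miR-1224-5p above 31.6%. In Dox over Control, 2.7% of all listed miRNAs had a lower ratio than miR-320-5p.

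**Figure D3:**
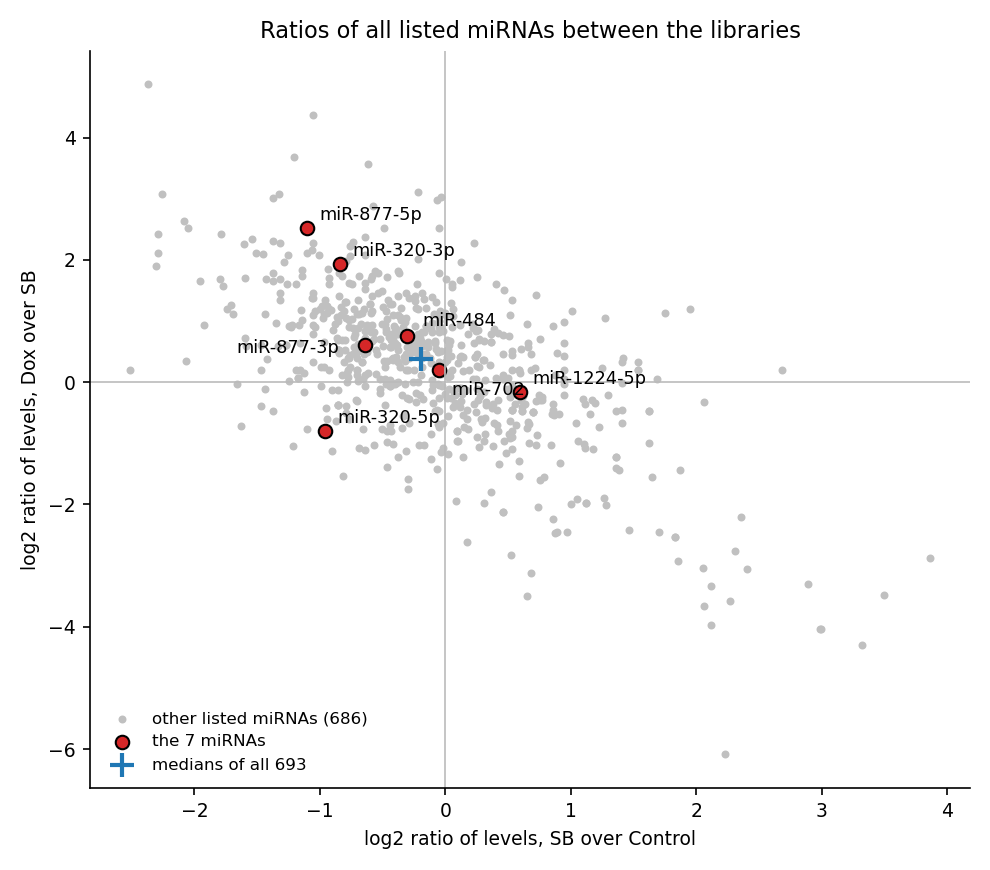
Each point is a listed miRNA, placed by its log2 ratio of SB over Control (x axis) and of Dox over SB (y axis), with the 7 miRNAs in red, the other 686 in grey and the medians of all 693 as a cross. The axes share the SB library. miR-320-3p and miR-877-5p lie at the upper left, miR-1224-5p at the right with a ratio of 0.60 in SB over Control, and miR-320-5p is low on both axes.

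Differences between members do not depend on any scaling that applies 1 factor to a library, since the factor cancels. miR-877-5p exceeded miR-1224-5p by 2.68 on the log2 scale in Dox over SB (95% interval 2.40 to 2.96) and was below it by 1.70 in SB over Control (difference -1.70, -2.0 to -1.40). So these introns of equal length gave 5p arms with unlike changes. miR-320-3p exceeded miR-484 by 1.18 in Dox over SB (1.02 to 1.33) and miR-1224-5p by 2.09 (1.84 to 2.34), and was 0.59 below miR-877-5p (difference -0.59, -0.72 to -0.46). Quantile normalization is not such a scaling and made the 4 differences in Dox over SB given here 2.49, 1.01, 1.85 and -0.64 in the same order. In Dox over Control, miR-484 and miR-1224-5p differed by 0.02 (-0.30 to 0.33), an interval that leaves room for a difference of 0.3 either way.

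The size of a single ratio and whether it was called do depend on the scale, while of the 7 only miR-702 changed sign under the scalings. Over the deposited scale and 5 other scalings, the median of all listed miRNAs ranged from -0.44 to 0.04 in SB over Control, from -0.09 to 0.38 in Dox over SB and from -0.11 to 0.19 in Dox over Control. The share of all calls that were higher was 33.7%, 70.0% and 60.7% in these comparisons as deposited, and ranged over the scalings from 17.96% to 53.4%, from 42.8% to 70.0% and from 38.0% to 60.7%. miR-320-3p and miR-877-5p met the activation profile under all 6 scalings, and with a fold of 2 in place of the lower threshold miR-320-3p lost its call in SB over Control and the profile. For miR-320-3p the ratio of Dox over SB ranged from 1.42 to 1.93 and that of Dox over Control from 0.65 to 1.09. For miR-877-5p these ratios ranged from 2.05 to 2.52 and from 1.10 to 1.42.

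The other members were less steady. miR-484 was called higher in Dox over SB under 5 of the 6 scalings (0.28 to 0.75, not called on the reads of listed miRNAs), was called higher in Dox over Control under 2, and met the profile under 1, the scale of miR-26a-5p. miR-1224-5p was called higher in SB over Control under all 6 (0.36 to 0.83), lower in Dox over SB under 4 (-0.63 to -0.16) and higher in Dox over Control under 1. miR-320-5p was called lower in SB over Control and in Dox over Control under all 6, and in Dox over SB under 4. miR-702 and miR-877-3p were called under none.

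**Figure D4:**
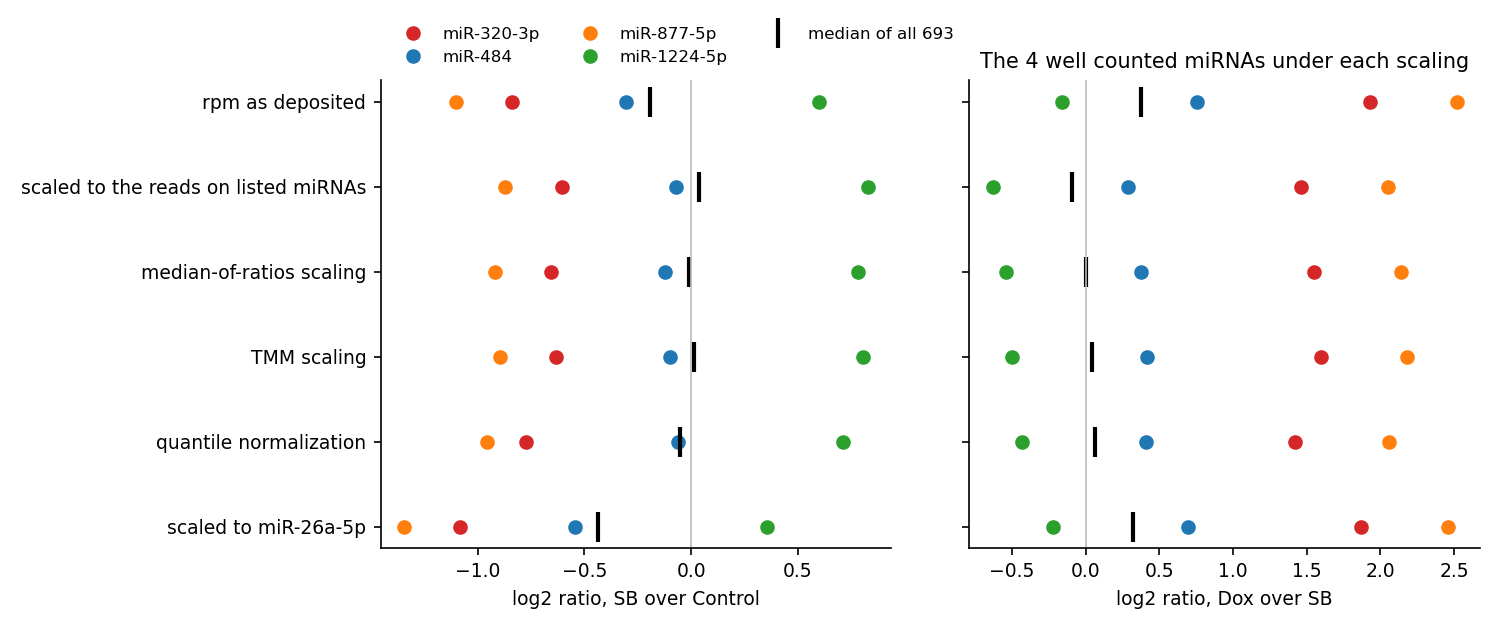
log2 ratios of SB over Control (left) and Dox over SB (right) for the 4 miRNAs with at least 100 reads in every library, under the deposited scale and 5 other scalings, with the median of all 693 listed miRNAs as a vertical bar. The order of the 4 is the same in every row, with miR-877-5p and miR-320-3p farthest from the median on one side and miR-1224-5p on the other.

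The arms of miR-320 were used very unequally. The 5p arm made up 0.0495% of the hairpin's reads in Control (45 of 90973, exact binomial 95% interval 0.0361 to 0.0662%), 0.0455% in SB (24 of 52751, 0.0292 to 0.0677%) and 0.00686% in Dox (12 of 174996, 0.00354 to 0.0120%). Control and SB had overlapping intervals and the Dox share was below both. The change of the 3p arm exceeded that of the 5p arm by 2.73 in Dox over SB on the log2 scale (1.67 to 3.86) and by 0.12 in SB over Control (-0.63 to 0.90). Of 239 pairs of arms listed under 1 name, the number whose rarer arm had a smaller share than that of miR-320 was 6 in Control, 1 in SB and 0 in Dox. Arms whose reads summed to fewer than 10 are not listed. Hairpins with only 1 listed arm are thus outside this ranking, and some of them may be more unequal than miR-320. The median share of the rarer arm was 12.1% in Control, 11.0% in SB and 13.9% in Dox.

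Changes in the ratio of arms were common in these libraries. Of 169 pairs with at least 10 reads of each arm in every library, the 3p arm had the higher ratio of Dox over SB in 69 and the 5p arm in 100, and the size of the difference had a median of 0.81. It was larger than in miR-320 for 3 pairs, those of miR-145, miR-23a and miR-3096b, named here after their values were seen. In miR-877 the rarer arm was 3p, with 0.713% of the reads in Control (9 of 1263, 0.326 to 1.35%), 0.980% in SB (6 of 612, 0.361 to 2.12%) and 0.264% in Dox (8 of 3031, 0.114 to 0.519%). The change of its 5p arm exceeded that of its 3p arm by 1.90 in Dox over SB, with a wide interval of 0.09 to 3.63. In both hairpins the abundant arm was thus the one with the larger ratio of Dox over SB.

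**Figure D5:**
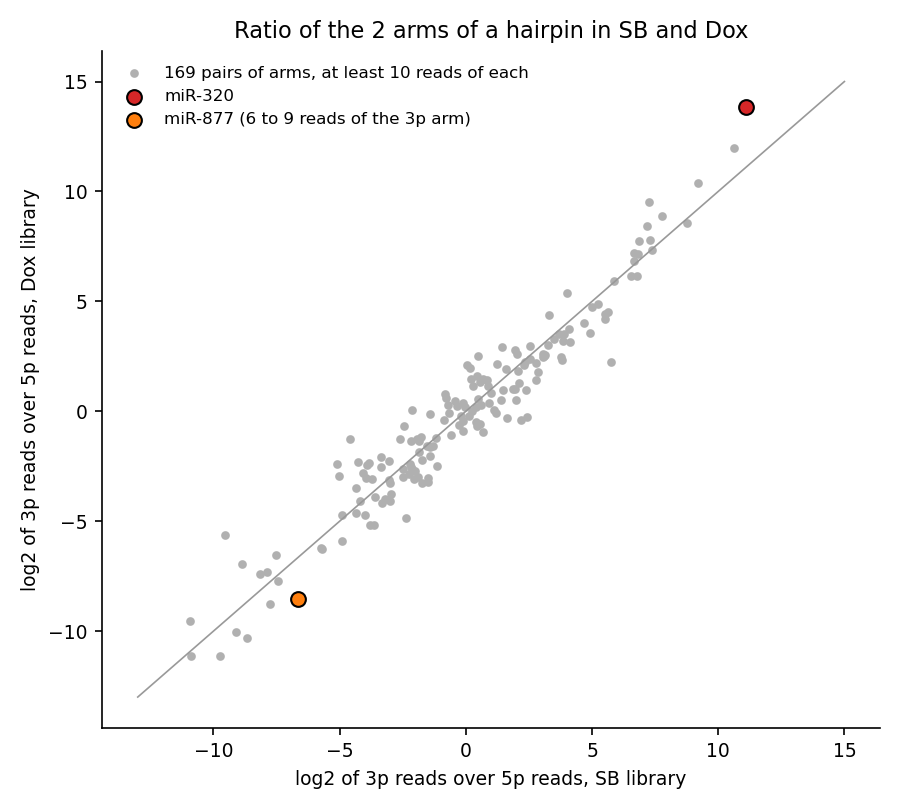
Each point is a pair of arms of 1 name, with the log2 of 3p over 5p reads in the SB library (x axis) and in the Dox library (y axis); on the grey line the ratio is equal in both. Grey points are the 169 pairs with at least 10 reads of each arm, miR-320 (red) is the pair farthest to the upper right, above the line, and miR-877 (orange), with 6 to 9 reads of its 3p arm, lies below the line.

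The canonical clusters gave the values to set beside these. The miR-290, miR-302, miR-17 and miR-106b clusters, ES cell and proliferation miRNAs cut from polycistronic transcripts by the Microprocessor, had 41 listed members, counting all hairpins of miR-19b and miR-92a, of which some lie in a related cluster on another chromosome. On the deposited scale, 14 were lower (34.1%, against 30.2% of all listed miRNAs) and 6 higher (14.6%, against 15.3%) in SB over Control. In Dox over SB, 10 were lower (24.4%, against 17.9%) and 22 higher (53.7%, against 41.7%). The activation profile was met by 11 (26.8%, against 20.9%). Their median log2 ratio was -0.22 in SB over Control, 0.57 in Dox over SB and 0.23 in Dox over Control. Among the 28 with at least 100 reads in every library, Dox over SB ran from -1.17 for miR-292-3p to 3.07 for miR-92a-2-5p.

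Of the 4 well counted members, miR-484 was the nearest to the median of these 28 in SB over Control and in Dox over SB. In Dox over SB, 1 of the 28 lay above miR-877-5p, 2 above miR-320-3p, 11 above miR-484 and 21 above miR-1224-5p. In SB over Control, 1 lay below miR-877-5p, 6 below miR-320-3p, 12 below miR-484 and all 28 below miR-1224-5p. miR-484 differed from the median of the 28 by -0.09 in SB over Control and by 0.15 in Dox over SB. Members thus lay on both sides of the canonical median in these comparisons. In Dox over Control all 4 lay above it, by 0.85 for miR-320-3p, 0.21 for miR-484, 1.18 for miR-877-5p and 0.20 for miR-1224-5p.

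The miRNAs closest to miR-320-3p in the plane of SB over Control and Dox over SB, among non-members with at least 100 reads in every library, were in order miR-129-2-3p, miR-92a-1-5p, miR-219-1-3p, miR-296-3p and miR-25-5p, at distances of 0.06 to 0.23 on the log2 scale. miR-129-2-3p had 28.2 rpm in Control, 16.3 rpm in SB and 64.0 rpm in Dox. miR-92a-1-5p and miR-25-5p come from the canonical clusters above. Those closest to miR-877-5p were miR-181d-5p, miR-423-5p, miR-92b-5p, miR-25-5p and miR-181c-3p, at 0.35 to 0.45, and miR-320-3p itself was 0.64 away. miR-181d-5p had 9770.4 rpm in Control, 3763 rpm in SB and 18552 rpm in Dox. Each likeness rests on 3 libraries.

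miR-423-5p also belongs to the 3 single-hairpin miRNAs, with miR-185-5p and miR-744-5p, that the study picked on these samples, so that their direction is not independent evidence. By sequencing alone, all 3 met the profile, with log2 ratios of Dox over SB of 2.11 for miR-423-5p, 0.95 for miR-744-5p and 0.84 for miR-185-5p. miR-26a-5p, a miRNA used for scaling, had 647 rpm in Control, 766 rpm in SB and 798 rpm in Dox and was not called.

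Other hairpins reported to bypass the Microprocessor were looked at as a second group of 11 listed miRNAs: the tandem mirtron miR-3102, miR-664 and miR-1839 from snoRNAs, miR-1983 from a tRNA and miR-712 from a spacer of ribosomal RNA. In SB over Control 3 were lower (27.3%, against 30.2% of all listed miRNAs) and 1 higher (9.09%, against 15.3%). In Dox over SB 1 was lower (9.09%, against 17.9%) and 5 were higher (45.5%, against 41.7%). The activation profile was met by 1 (9.09%, against 20.9%), and with 11 miRNAs nothing is read from this difference. Their median log2 ratios, -0.19 in SB over Control and 0.46 in Dox over SB, lay beside those of all listed miRNAs, -0.19 and 0.38. miR-1839-5p, the most abundant, had 2849 rpm in Control, 2499 rpm in SB and 3814 rpm in Dox, with a ratio of Dox over SB of 0.61. miR-1983 had 105 rpm in Control, 135 rpm in SB and 164 rpm in Dox, and was called higher in SB over Control and in Dox over Control. miR-3102-3p met the profile but ended below Control, with 12.2 rpm in Control, 4.84 rpm in SB and 7.28 rpm in Dox.

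The annotation gave 4 other hairpins that fill an intron, miR-1231, miR-1981, miR-3062 and miR-3102, with 9 listed miRNAs, of which the 4 of miR-3102 were already in the group of 11 above. Of the 9, 4 were lower in SB over Control (44.4%, against 30.2% of all listed miRNAs) and 0 higher, 5 were higher in Dox over SB (55.6%, against 41.7%) and 0 lower, and 3 (33.3%, against 20.9%) met the profile. miR-3102 supplied 2 of the lower calls, 3 of the higher calls and 1 of the profiles. The best counted was miR-1981-5p, whose hairpin coincided with an 82-base intron of Marc2 (chr1:184822407-184822488, minus strand), and its sequence is shown with the seed in capitals because it shares the intron start of the mirtron 5p arms above.
miR-1981-5p: gUAAAGGCugggcuuagacguggc
It had 338 rpm in Control (3700 reads), 207 rpm in SB (2352 reads) and 449.8 rpm in Dox (4451 reads), with log2 ratios of -0.71 in SB over Control and 1.12 in Dox over SB. Its arm from the other side of the hairpin, miR-1981-3p, had 9 to 11 reads in each library and was not called. Between the 3 well counted mirtron 5p arms, the ratios of Dox over SB were 2.52 for miR-877-5p, 1.12 for miR-1981-5p and -0.16 for miR-1224-5p.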

How the data were processed

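Small RNA was sequenced from Control, SB and Dox TAG1 ES cells, with 1 library per condition and 2 runs pooled per library. According to the methods, the authors clipped adaptors with FASTX, kept reads longer than 16 bases, aligned them with Bowtie 0.12.7 to miRBase 18 without mismatches, and dropped miRNAs whose reads summed to fewer than 10. Reads with several matches went to the miRNA of fitting length, or were given to every match. The deposited values are rpm, scaled by the authors per library. All 2079 values were whole multiples of 1 step per library within 0.001 of a read, which gave the reads and implied totals used here. These totals are not the read totals stated for the libraries in the study, so what the authors scaled to is not clear, and other scalings were tried.

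Ratios were taken without a pseudocount. Levels have exact Poisson intervals, shares and ratios of reads Clopper-Pearson intervals, and differences between members conditional exact intervals, all at 95%. The members, lists and alternatives were chosen with earlier results of these data known. Named miRNAs were all members, the 5 nearest miRNAs to miR-320-3p and to miR-877-5p, miR-26a-5p, and up to 4 examples of each list. Those of the intron hairpins and of the arm comparison, and miR-21-5p and miR-199b-3p, were chosen after their values were seen. The alternatives were 5 scalings, a pseudocount of 1 rpm, at least 100 summed reads, folds of 1.5 and 2, and a Bonferroni Z-score. Positions came from GENCODE M21 (GRCm38), with Python 3.11.15, scipy 1.17.1 and pandas 2.3.3. Base composition was not compared over the whole list because 74.5% of the names had a sequence.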

Additional observations from a re-analysis of the deposited data

How the results depend on the processing

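No condition had a replicate, so all limits here are those of counting and scaling, and no replicate could be left out. No paired analysis was possible because each condition had 1 library. In Dox over Control the number of members called, 5, became 3 with scaling to the reads on listed miRNAs, median-of-ratios, TMM or miR-26a-5p and with folds of 1.5 and 2. For Dox over SB it rose from 3 to 5 with median-of-ratios, TMM and quantile scaling, as miR-320-5p and miR-1224-5p were then called lower. With a fold of 2, members called in SB over Control went from 4 to 1 and those with the activation profile from 2 to 1, which left miR-877-5p and lost miR-320-3p. The median of the members in Dox over Control, 0.43, became 0.13 on the scale of miR-26a-5p and 0.77 when 100 summed reads were required, which left 4 members. The other counts of members stayed within 1.5 times their value. The other medians stayed within the counting interval of the median member, which is wide because that member, miR-877-3p in SB over Control and in Dox over SB, has 6 to 9 reads. The median in Dox over SB, 0.61, was 0.15 with listed reads, 0.24 with a pseudocount of 1 rpm and 1.34 with 100 summed reads, and that in SB over Control, -0.64, was -0.30 with the pseudocount.

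Of 126 recomputed ratios of single members, 97 kept their direction and call, 10 lost and 9 gained a call, and 10 changed sign. All 10 were of miR-702, with 5 reads per library. In SB over Control it became 0.18, 0.13, 0.15 and 0.15 on the scales of listed reads, median-of-ratios, TMM and quantiles. In Dox over SB it became -0.27, -0.18 and -0.14 on the first 3 of these, and in Dox over Control -0.090, -0.051 and -0.15 on the scales of listed reads, median-of-ratios and miR-26a-5p. Over all listed miRNAs the number with the activation profile, 145, became 79 with listed reads, 86 with median-of-ratios and with TMM, and 41 with a fold of 2. A fold of 2 also took the calls from 315 to 116 in SB over Control, from 413 to 221 in Dox over SB and from 349 to 150 in Dox over Control, and a Bonferroni Z-score took those over Control to 203 for SB and 232 for Dox.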
